A study of Homo sapiens with 9 samples.

Results

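The 9 genes described here, TXNIP, ARRDC4, FBXO32, KLHL24, PIK3IP1, CCNG2, IRS2, SESN3 and BCL6, are linked to the activity of FOXO transcription factors and to nutrient stress. They were selected by symbol, partly on the difference in their summed counts between HaloTag and Dendra2 libraries, from 36601 genes listed in each count matrix. Their difference between the tags is therefore given as a description, with no test. The tests on the 9 genes concern the cell cycle, the CTD length and the variation from cell to cell. The phase difference was also compared between the tags, and calls there are not free of the choice of genes. Other genes of the same pathways are tested between the tags too.

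FOXO1, FOXO3, FOXO4 and FOXO6 are forkhead transcription factors. When insulin or growth factors activate PI3K and AKT, AKT phosphorylates FOXO1, FOXO3 and FOXO4 and they leave the nucleus. When growth signals fall, these 3 return and switch on genes of cell cycle arrest, stress resistance and protein breakdown. TXNIP is a further sensor of nutrients: the glucose-responsive factors MondoA (MLXIP) and ChREBP (MLXIPL), with their partner MLX, bind paired E-boxes in its promoter, and its protein binds thioredoxin and limits glucose uptake. ARRDC4 is a related α-arrestin that MondoA also drives. FBXO32 (atrogin-1) and KLHL24 are substrate adaptors of ubiquitin ligases, PIK3IP1 inhibits PI3K at the membrane, IRS2 is an adaptor of the insulin receptor, and SESN3 is a sestrin that restrains mTORC1. CCNG2 is an atypical cyclin linked to arrest and BCL6 is a transcriptional repressor.

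The data are 3′ single-cell RNA counts from U2OS cells, a human osteosarcoma line, in which RPB1, the largest subunit of RNA polymerase II, was replaced by a form with an N-terminal HaloTag or Dendra2. HaloTag is an enzyme that binds a synthetic ligand, and Dendra2 is a fluorescent protein. Within each tag the C-terminal domain (CTD) of RPB1 held 25, 52 or 70 repeats (25R, 52R, 70R), of which 52R is the wild-type length. Cells of all 6 genotypes had been kept in 1 µg/ml α-amanitin for 6 days, and cells without it or without a tag were not analysed here. There was 1 library per genotype, so the libraries are the replicates in every test and p-values measure the spread between these libraries. In the fit on tag plus CTD length no genotype is repeated. The spread there is how far the CTD differences disagree between the tags. Each HaloTag library was sequenced on 2 dates, per the series' design text, and both runs enter 1 matrix. The sequencing dates of HaloTag and Dendra2 libraries differ, so tag and sequencing date cannot be told apart.

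After filtering, the HaloTag libraries held 3483 to 4677 cells and the Dendra2 libraries 2718 to 3121, with 52553686 to 58442223 unique molecular identifiers (UMIs, each a counted transcript) in a library. The median cell had 10812 to 16020 UMIs in HaloTag libraries and 15770 to 18739 in Dendra2 libraries. Its mitochondrial share was 6.85% to 9.08% in HaloTag libraries and 5.41% to 6.13% in Dendra2 libraries. Any pair of libraries shared at most 7 cell barcodes. VIM, a mesenchymal marker, stood at 2495 CPM (UMI counts scaled to the size of the library) or more in every library. It was the highest of 10 osteoblast and mesenchymal markers, which varied widely. SPARC stood at 130 to 248 CPM, COL1A1 at 43.2 to 211 CPM and RUNX2 at 9.58 CPM or more. ALPL and BGLAP stood at 4.94 CPM or less, CDH11 at 10.2 CPM or less and COL1A2 at 0.198 CPM or less. SPP1 ranged from 0.414 CPM in HaloTag 70R to 18.4 CPM in HaloTag 25R. PTPRC, the pan-leukocyte marker, stood at 2.37 CPM or less and the muscle regulator MYOD1 at 0.117 CPM or less. The T cell gene CD3D stood higher, at 1.80 to 16.9 CPM in HaloTag libraries (highest in 25R) and 0.965 to 4.596 CPM in Dendra2 libraries, and the other 5 leukocyte markers at 1.18 CPM or less. The labels name the cells epithelial: the keratins KRT8 and KRT18 stood at 152 to 565 and 741 to 1250 CPM, but the epithelial adhesion genes EPCAM and CDH1 at no more than 7.85 and 0.422 CPM. In bulk sums such as these, fewer cells expressing a gene and less RNA per cell cannot be told apart.

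The RefSeq table of promoters for GRCh38.p14 has no entry for FBXO32, so its promoter was not searched. For the other 8 genes it holds 11 promoters, each running from 250 bases before to 50 bases after a transcription start. They were searched on both strands for the FOXO core motif GTAAACA and for the E-box CACGTG that MLX and MAX family factors bind. Matching gave GTAAACA in 2 of the 11 promoters, against 3.42% of the 35116 promoters in the table, and CACGTG in 2 of the 11, against 7.26%. A further pattern, a pair of CACGNG boxes set 5 bases apart, was added after the TXNIP sequence had been seen; it stood in the TXNIP promoter and in 20 promoters in all (0.0570%). A match describes these letters and is not evidence of binding. The 4 promoters with a match are shown with the motifs in capitals, 5′ to 3′ on the strand of the gene. In the TXNIP promoter (chr1:145996530-145996829, minus strand) GTAAACA begins 124 bases before the start and the paired boxes follow it. In that of PIK3IP1 (chr22:31292439-31292738, minus strand) the core stands on the opposite strand as TGTTTAC, just after the start. The E-boxes lie in the promoters of CCNG2 (chr4:77156957-77157256, plus strand) and ARRDC4 (chr15:97960453-97960752, plus strand).
TXNIP: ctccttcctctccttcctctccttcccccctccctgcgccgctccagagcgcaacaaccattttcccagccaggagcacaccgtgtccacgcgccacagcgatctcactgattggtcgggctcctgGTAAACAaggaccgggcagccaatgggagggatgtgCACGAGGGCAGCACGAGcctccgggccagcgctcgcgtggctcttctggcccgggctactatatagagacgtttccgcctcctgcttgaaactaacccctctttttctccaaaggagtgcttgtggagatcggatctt
PIK3IP1: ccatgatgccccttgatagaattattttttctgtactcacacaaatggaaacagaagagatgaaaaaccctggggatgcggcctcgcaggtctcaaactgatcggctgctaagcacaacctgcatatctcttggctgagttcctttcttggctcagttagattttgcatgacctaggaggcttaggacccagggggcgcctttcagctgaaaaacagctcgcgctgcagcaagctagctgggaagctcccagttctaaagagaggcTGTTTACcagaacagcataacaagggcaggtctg
CCNG2: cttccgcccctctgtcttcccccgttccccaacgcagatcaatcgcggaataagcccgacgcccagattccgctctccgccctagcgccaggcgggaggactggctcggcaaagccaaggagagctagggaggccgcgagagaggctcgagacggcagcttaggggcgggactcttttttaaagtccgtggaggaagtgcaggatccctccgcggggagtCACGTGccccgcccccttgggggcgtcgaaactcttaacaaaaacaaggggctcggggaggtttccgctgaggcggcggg
ARRDC4: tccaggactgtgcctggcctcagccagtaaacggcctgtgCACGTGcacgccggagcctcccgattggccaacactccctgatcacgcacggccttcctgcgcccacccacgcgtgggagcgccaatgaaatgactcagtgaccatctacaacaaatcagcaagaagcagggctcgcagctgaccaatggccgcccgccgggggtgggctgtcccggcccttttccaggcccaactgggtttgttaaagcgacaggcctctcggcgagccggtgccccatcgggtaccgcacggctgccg

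TXNIP, the thioredoxin-binding α-arrestin whose promoter holds both the FOXO core and the paired boxes, had a wide gap between the tags. The gene lies at chr1:145992435-145996579 (GRCh38 in the reference annotation, as for the genes that follow; minus strand). With 25R, 52R and 70R its level was 16.6, 17.1 and 31.7 CPM in HaloTag cells, against 5.19, 4.18 and 4.99 CPM in Dendra2 cells. The means were 21.8 ± 8.61 CPM in HaloTag and 4.79 ± 0.53 CPM in Dendra2 libraries (SD, n = 3 each), a log2 difference of 2.13. The 3 Dendra2 libraries lay close together, while HaloTag 70R stood well above the other HaloTag libraries. Its paralog ARRDC4 (chr15:97960703-97973833, plus strand) was sparse, at 2.31 (25R), 1.13 (52R) and 1.62 (70R) CPM in HaloTag libraries, against 0.864, 0.586 and 0.975 CPM in Dendra2 libraries of the same CTD lengths. In ARRDC4 it was HaloTag 25R, not 70R, that held the highest level, so the pair did not follow the same order across CTD lengths.

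The ubiquitin ligase adaptors, FBXO32 (chr8:123497889-123541206, minus strand) and KLHL24 (chr3:183635610-183684519, plus strand), had wide gaps between the tags. FBXO32 stood at 19.8 (25R), 31.5 (52R) and 23.2 (70R) CPM in HaloTag libraries, against 4.94, 3.44 and 5.57 CPM in Dendra2 libraries of the same CTD lengths (log2 difference 2.41). The 52R library was the highest of the HaloTag libraries and the lowest of the Dendra2 libraries, so the difference was 3.20 within the 52R pair but 2.00 and 2.06 in the 25R and 70R pairs. KLHL24 stood at 13.1 (25R), 17.8 (52R) and 17.2 (70R) CPM in HaloTag libraries, against 5.11, 6.41 and 4.52 CPM in Dendra2 libraries of the same CTD lengths, a log2 difference of 1.58. Its lowest HaloTag library had 2.04 times the level of its highest Dendra2 library, so the groups did not overlap.

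The regulators of insulin and mTORC1 signalling are PIK3IP1 (chr22:31281594-31292534, minus strand), SESN3 (chr11:95165513-95232541, minus strand) and IRS2 (chr13:109752695-109786583, minus strand). PIK3IP1, the PI3K inhibitor, stood at 11.4 (25R), 9.95 (52R) and 6.51 (70R) CPM in HaloTag libraries, against 4.12, 2.32 and 2.76 CPM in Dendra2 libraries of the same CTD lengths (log2 difference 1.60). It was highest at 25R within each tag. SESN3, the sestrin, stood at 32.4 (25R), 39.5 (52R) and 37.3 (70R) CPM in HaloTag libraries, against 18.6, 20.3 and 16.3 CPM in Dendra2 libraries of the same CTD lengths, a log2 difference of 0.99. IRS2 was near the limit of detection, at 0.591, 0.406 and 0.342 CPM in HaloTag and 0.301, 0.273 and 0.263 CPM in Dendra2 libraries, in order of CTD length.

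CCNG2 (chr4:77157207-77433388, plus strand) and BCL6 (chr3:187721377-187745725, minus strand), of arrest and repression, had the smallest gaps. BCL6 stood at 7.92 (25R), 9.12 (52R) and 9.68 (70R) CPM in HaloTag libraries, against 6.89, 6.74 and 5.85 CPM in Dendra2 libraries of the same CTD lengths (log2 difference 0.45). CCNG2 stood at 15.5 (25R), 21.1 (52R) and 13.9 (70R) CPM in HaloTag libraries, against 12.4, 18.4 and 10.4 CPM in Dendra2 libraries of the same CTD lengths (log2 difference 0.32), and its groups overlapped. In 8 of the 9 genes the lowest HaloTag library lay above the highest Dendra2 library. That held for 12.7% of the 18069 genes tested, and 0.26% of them were called between the tags by edgeR, but since the genes were chosen partly on this contrast nothing is read from the count. Just inside that division were IRS2 (lowest HaloTag library 0.342 CPM, highest Dendra2 library 0.301), BCL6 (lowest HaloTag 7.92, highest Dendra2 6.89) and ARRDC4 (lowest HaloTag 1.13, highest Dendra2 0.975), and just outside it was CCNG2 (lowest HaloTag 13.9, highest Dendra2 18.4).

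**Figure D1:**
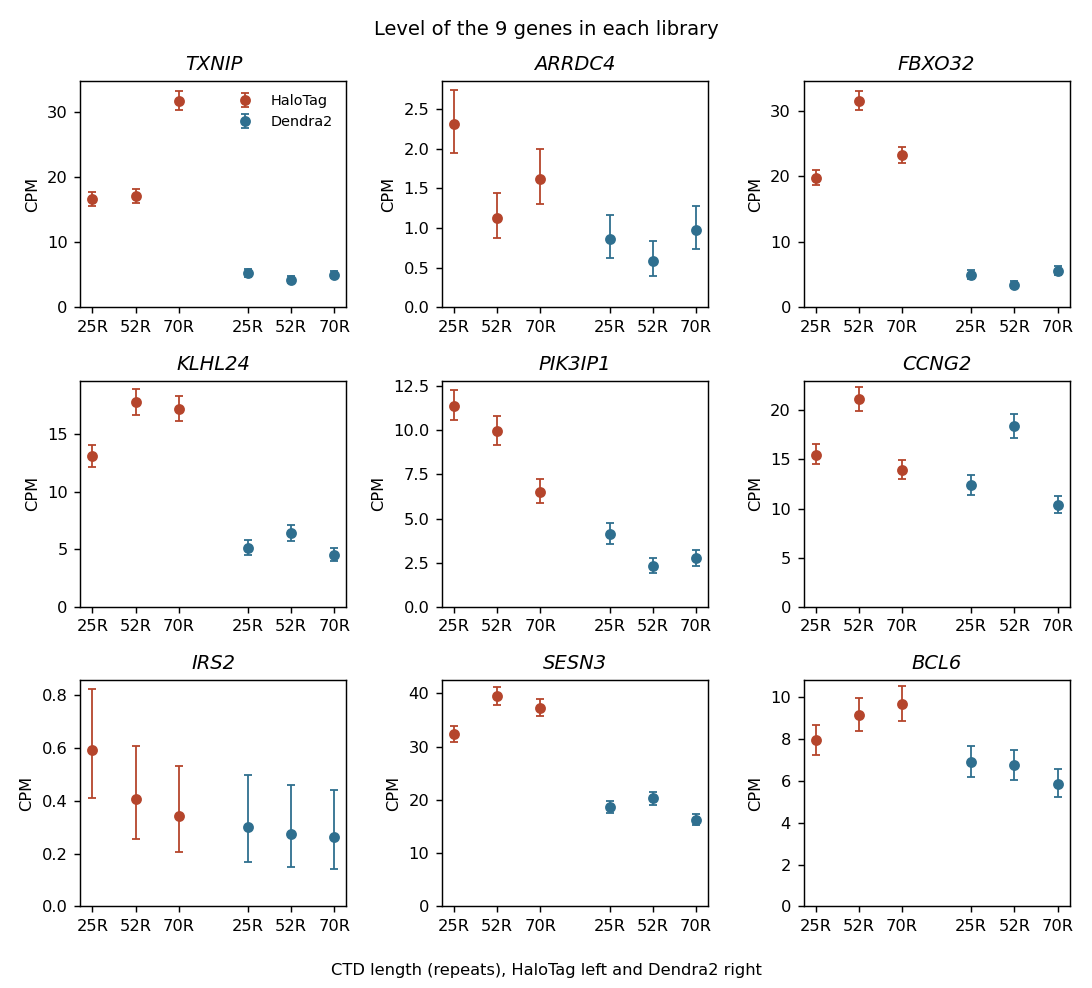
Level of each gene (CPM, linear axis from 0) in the 6 libraries, HaloTag left and Dendra2 right, by CTD length; points are single libraries and bars are 95% exact Poisson intervals, which cover counting error only. TXNIP and FBXO32 lie at 16.6 CPM or more in the HaloTag libraries and at 5.57 CPM or less in the Dendra2 libraries, while the CCNG2 points of both tags overlap.

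Depth and RNA quality differed between the tags too, as did the level of FN1, a mesenchymal matrix gene, at 59.1 to 71.7 CPM in HaloTag and 21.7 to 33.9 CPM in Dendra2 libraries. FN1 was the gene edgeR called among 9 osteoblast and mesenchymal markers tested. Of these, 4 had an unadjusted p under 0.05 in edgeR and DESeq2 called 4. The difference was above 0 in 7 and below 0 in 2 (median log2 0.404, against 0.03 over all genes). The tags did not overlap either for SPARC (lowest HaloTag 198 CPM, highest Dendra2 178), RUNX2 (21.5 and 15.5) or ALPL (3.87 and 1.78). They overlapped for VIM, COL1A1, BGLAP, SPP1 and CDH11. The part of these markers, depth and RNA quality in the levels of the FOXO-linked genes was not tested beyond the values that follow. Among cells thinned to 5000 UMIs each, TXNIP was found in 7.31% to 13.0% of cells of the HaloTag libraries and in 2.02% to 2.21% of cells of the Dendra2 libraries (before thinning, 16.6% to 22.4% in HaloTag and 5.90% to 7.54% in Dendra2 libraries). FBXO32 was found in 9.61% to 14.7% of thinned HaloTag cells and 2.03% to 2.91% of thinned Dendra2 cells. KLHL24 was found in 6.61% to 9.77% of thinned HaloTag cells and 2.44% to 3.24% of thinned Dendra2 cells, and PIK3IP1 in 3.32% to 6.44% of HaloTag and 1.18% to 2.05% of Dendra2 cells. ARRDC4 and IRS2 were found in at most 1.08% of thinned cells of any library. For SESN3 these shares were 15.5% to 18.4% in HaloTag and 8.38% to 10.5% in Dendra2 libraries. No cell type that lacks these genes was present in the single line to measure the free RNA, so these are shares of cells with a UMI and not of expressing cells. In cells with at most 10% mitochondrial UMIs, a setting added after the data were seen, the log2 difference was 2.02 for TXNIP, 2.25 for FBXO32 and 0.88 for SESN3. The richest cells held 24 TXNIP UMIs in a HaloTag library and 15 in a Dendra2 library. In the HaloTag libraries the ratio of variance to mean over thinned cells was 1.28 to 1.91 for TXNIP and 1.23 to 1.72 for FBXO32, against a median of 1.04 over all genes ranked. In the Dendra2 libraries the ratio was 1.10 to 1.49 for TXNIP and 1.015 to 1.44 for FBXO32, so the ranges of the tags overlapped.

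Each cell was assigned to G1, S or G2/M from its scores on lists of S and G2/M genes, none of which is among the 9, after thinning to 5000 UMIs. Cells of G1, in which both scores are below 0, made up 35.8% to 38.4% of HaloTag cells and 13.8% to 19.3% of Dendra2 cells. The phases are ranges of a score, with 18.2% to 26.8% of cells per library within 0.05 of a boundary. G1 cells had the lowest median UMI count and the highest median mitochondrial share of the phases in every library (for example 8935 UMIs and 9.83% in G1 cells, against 13113 UMIs and 8.43% in G2/M cells of HaloTag 70R), and the part of depth and RNA quality in the phase differences was not tested.

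The genes other than IRS2 were mostly lower outside G1. TXNIP stood at 26.3, 8.66 and 12.5 CPM in G1, S and G2/M cells of HaloTag 25R, at 28.9, 9.65 and 13.3 CPM in those of HaloTag 52R, and at 49.4, 18.4 and 25.5 CPM in those of HaloTag 70R. In the Dendra2 libraries it stood at 9.29, 2.77 and 5.24 CPM (25R), 10.1, 2.55 and 3.98 CPM (52R) and 4.09, 2.41 and 6.27 CPM (70R), on 30 to 202 UMIs per value. S cells were the lowest in every library, and Dendra2 70R was the exception in which G2/M cells lay above G1 cells. FBXO32 stood at 32.6, 14.996 and 12.9 CPM in G1, S and G2/M cells of HaloTag 25R, 63.6, 20.1 and 16.7 CPM in HaloTag 52R and 47.3, 12.9 and 10.3 CPM in HaloTag 70R. In Dendra2 libraries FBXO32 stood at 14.3, 3.46 and 3.82 CPM (25R), 11.4, 2.83 and 2.33 CPM (52R) and 15.014, 4.01 and 3.85 CPM (70R). KLHL24 stood at 25.3, 7.82 and 6.90 CPM in G1, S and G2/M cells of HaloTag 25R and at 20.1, 4.67 and 2.52 CPM in those of Dendra2 25R. PIK3IP1 stood at 27.3, 3.17 and 4.09 CPM in G1, S and G2/M cells of HaloTag 25R and at 18.6, 1.90 and 2.27 CPM in those of Dendra2 25R. The G1 cells were the highest in every library for FBXO32, KLHL24 and PIK3IP1, and for FBXO32 the 52R library was the highest of the HaloTag libraries in each phase.

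Summed per library and phase and tested with edgeR with library as a block, all 8 of the genes that passed the filter on low counts fell in S and in G2/M cells. PIK3IP1 fell by 2.60 ± 0.10 in G2/M against G1 cells (log2, SE; edgeR adjusted p = 2.44e-16; lower in 6 of 6 libraries) and had a difference of −2.80 ± 0.12 in S against G1 cells (adjusted p = 5.42e-15). The log2 differences in S and G2/M cells were −1.95 ± 0.12 and −2.28 ± 0.11 for KLHL24, −1.67 ± 0.10 and −1.87 ± 0.09 for FBXO32, and −1.43 ± 0.08 and −1.43 ± 0.07 for SESN3. For TXNIP they were −1.54 ± 0.13 in S cells (edgeR adjusted p = 7.64e-10; lower in 6 of 6 libraries) and −0.91 ± 0.11 in G2/M cells (adjusted p = 1.24e-07; 5 of 6). For ARRDC4 they were −1.25 and −0.85, for BCL6 −0.66 and −0.82, and for CCNG2 −1.39 and −0.79, with adjusted p at or below 4.65e-05. Of all 16431 genes tested, 65.1% were called between G2/M and G1 cells and 32.7% were lower in G2/M; between S and G1 cells 55.7% were called and 27.7% were lower in S. IRS2 did not pass the filter, with 2 to 17 UMIs per library and phase, and was lower in S than in G1 cells in 3 of 6 libraries.

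**Figure D2:**
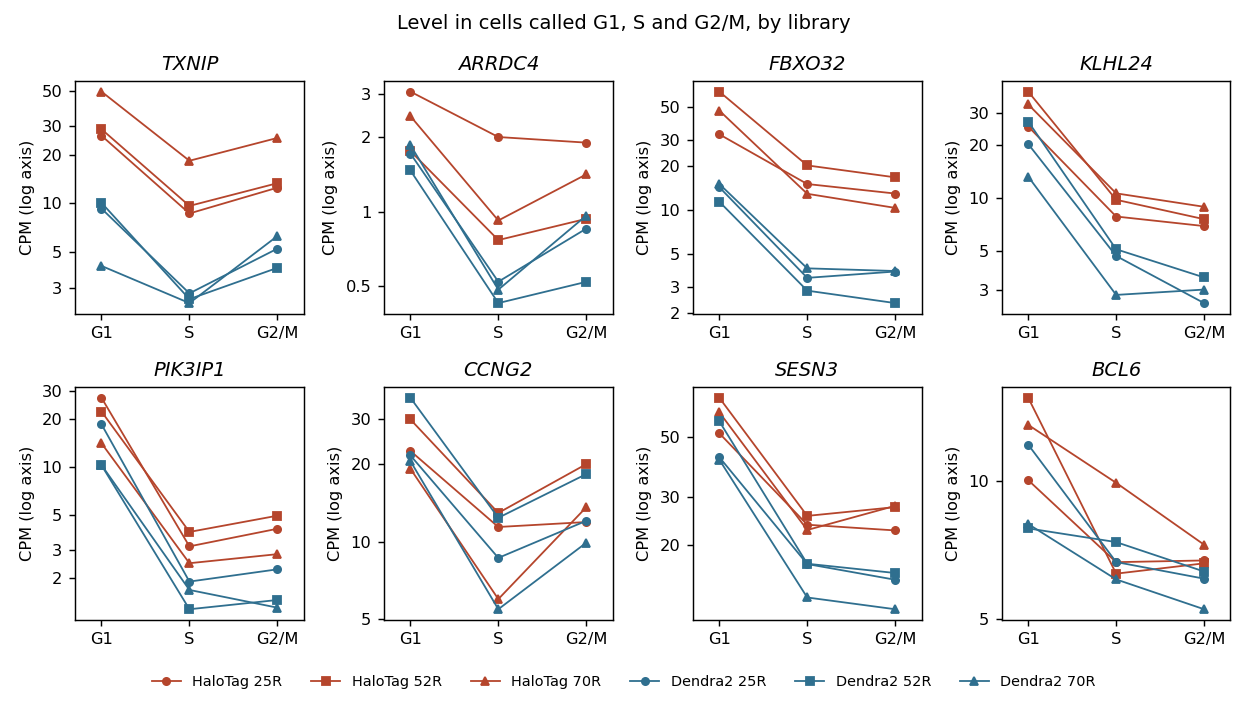
Level (CPM, log axis) of the 8 genes that passed the filter in cells called G1, S and G2/M, with a line for each library. Every line falls between G1 and S, TXNIP, ARRDC4 and CCNG2 lie higher in G2/M than in S cells of most libraries, and TXNIP in Dendra2 70R is the line that ends above its G1 value.

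The phase difference itself was compared between the tags by an interaction term. SESN3 fell less in HaloTag libraries: the G2/M against G1 difference was 0.51 ± 0.11 higher with HaloTag (log2, SE; edgeR adjusted p = 0.0199). It was the only one of the 9 called for either phase, against 0.84% of 16909 genes for the G2/M effect and 0.237% for the S effect. KLHL24 (0.63 ± 0.18, adjusted p = 0.135) and TXNIP (−0.53 ± 0.23, adjusted p = 0.395) did not pass. The interaction term is the tag difference in G2/M or S cells minus that in G1 cells, and the tag contrast chose the genes in part. G1 cells were 35.8% to 38.4% of HaloTag and 13.8% to 19.3% of Dendra2 cells. Nothing further is read from the SESN3 call.

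Within phases the difference between the tags varied by gene. TXNIP averaged 34.9 CPM in G1 cells of HaloTag libraries and 7.82 CPM in those of Dendra2 libraries, a log2 difference of 2.20 against 2.13 in all cells, and it was 2.17 in S and 1.68 in G2/M cells. FBXO32 averaged 47.8 CPM in HaloTag and 13.6 CPM in Dendra2 G1 cells (1.80), with differences of 2.21 in S and 1.99 in G2/M cells, against 2.41 in all cells. For both, every HaloTag library lay above every Dendra2 library in each phase. KLHL24 differed by 0.79 in G1, 1.18 in S and 1.37 in G2/M cells, against 1.58 in all cells, PIK3IP1 by 0.74, 0.98 and 1.24, against 1.60, and SESN3 by 0.43, 0.63 and 0.89, against 0.99. CCNG2 differed by −0.07, 0.20 and 0.19 in G1, S and G2/M cells, against 0.32. For FBXO32, KLHL24, PIK3IP1, SESN3 and CCNG2 the difference was thus smaller within every phase than in all cells, and in G1 cells the groups of the last 4 overlapped. HaloTag lay wholly above Dendra2 for 3 of the 9 genes in G1, 6 in S and 7 in G2/M cells, which held for 9.4%, 9.91% and 9.47% of genes tested in those phases; nothing is read from these counts, as the tag contrast chose the genes.

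**Figure D3:**
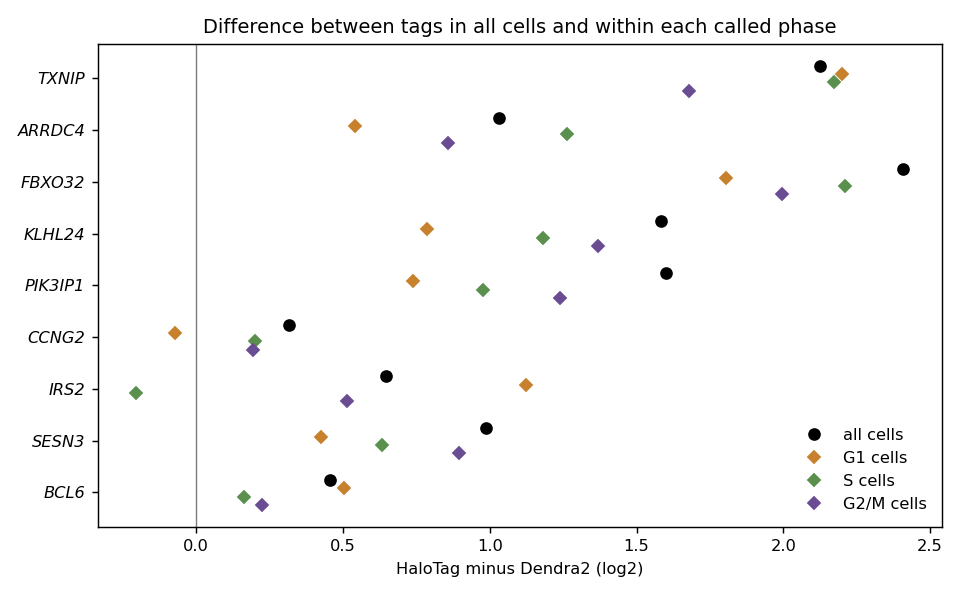
Log2 difference of HaloTag minus Dendra2 libraries in all cells (black circles) and within G1, S and G2/M cells (diamonds), with no test. TXNIP keeps its difference in G1 cells (2.20 against 2.13 in all cells), while FBXO32, KLHL24, PIK3IP1, SESN3 and CCNG2 lie lower within each phase than in all cells.

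The FOXO factors themselves were not called between the tags. FOXO3 averaged 20.3 ± 2.47 CPM in HaloTag and 16.3 ± 1.34 CPM in Dendra2 libraries (SD, n = 3 each), with an edgeR adjusted p of 0.332, and FOXO1 averaged 4.34 ± 0.52 CPM in HaloTag and 3.34 ± 0.38 CPM in Dendra2 libraries. FOXO4 averaged 1.06 ± 0.08 CPM in HaloTag and 0.771 ± 0.229 CPM in Dendra2 libraries, and FOXO6 averaged 3.47 ± 2.12 CPM in HaloTag and 3.11 ± 1.73 CPM in Dendra2 libraries. None of the 4 had an unadjusted p under 0.05 in edgeR, and DESeq2 called 0. Of 29 tested genes on a list of 35 other FOXO targets, 0 were called by edgeR, 10 had an unadjusted p under 0.05 and DESeq2 called 7; of all 18069 genes, 19.5% had an unadjusted p under 0.05 between the tags and DESeq2 called 1123. The list lay above 0 in 19 of 29 genes, with a median log2 of 0.22 against 0.03 over all genes. HBP1, a repressor of cell cycle genes, averaged 27.7 CPM in HaloTag and 13.6 CPM in Dendra2 libraries (log2 1.03 ± 0.18, edgeR adjusted p = 0.0987). The autophagy gene GABARAPL1 averaged 30.9 CPM in HaloTag and 18.2 CPM in Dendra2 libraries (0.76 ± 0.13, adjusted p = 0.0932), and the endothelial factor KLF2 averaged 12.5 CPM in HaloTag and 26.6 CPM in Dendra2 libraries (−1.07 ± 0.14, adjusted p = 0.0594).

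The glucose-sensing factors that drive TXNIP were likewise not called between the tags. MLXIP averaged 19.9 ± 1.34 CPM in HaloTag and 19.0 ± 2.44 CPM in Dendra2 libraries, MLX 40.3 ± 3.42 CPM in HaloTag and 49.6 ± 2.68 CPM in Dendra2 libraries, and MLXIPL stayed at 0.282 CPM or less in every library. TXN, the thioredoxin that TXNIP binds, averaged 428 ± 90.3 CPM in HaloTag and 650 ± 58.7 CPM in Dendra2 libraries, and the reductase TXNRD1 126 ± 33.2 CPM in HaloTag and 284 ± 110 CPM in Dendra2 libraries. None of the 10 tested genes of the MLX and MAX network, the 14 of the thioredoxin system, the 20 of glucose uptake and glycolysis, the 28 of PI3K, AKT and mTOR or the 15 of AMPK and nutrient stress was called by edgeR. At an unadjusted p under 0.05 these lists had 2, 5, 2, 4 and 3 genes in that order, and DESeq2 called 1, 2, 2, 3 and 1, to be read against the 19.5% of all genes at that unadjusted p.

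Between phases, other FOXO targets moved mainly in the direction of the set without IRS2, which was not tested. Of the 29 tested, 21 fell and 5 rose in G2/M against G1 cells (median log2 −0.47, against −0.02 over all genes). In S cells 20 fell and 6 rose (median −0.41, against −0.03 over all genes). Of all genes tested, 32.7% were called lower in G2/M and 27.7% in S cells. The differences in G2/M against G1 cells were −1.32 ± 0.05 for GABARAPL1, −1.21 ± 0.09 for the pro-apoptotic BBC3, −1.14 ± 0.10 for the arrest gene CDKN1A, −1.12 ± 0.07 for DEPP1 and −1.03 ± 0.06 for HBP1. CDKN1B, which encodes the cell cycle inhibitor p27, rose by 0.71 ± 0.07, KLF2 by 0.59 ± 0.09, the translation repressor EIF4EBP1 by 0.57 ± 0.04 and the mitochondrial peroxiredoxin PRDX3 by 0.53 ± 0.03. Of the factors, FOXO1 (−0.53 ± 0.12, edgeR adjusted p = 0.000541) and FOXO4 (−0.58 ± 0.22, adjusted p = 0.0256) fell in G2/M cells; FOXO3 (−0.08 ± 0.06) and FOXO6 (−0.03 ± 0.12) did not pass.

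In the MLX and MAX network 5 of 10 genes rose and 4 fell in G2/M against G1 cells. MXD4 (−1.94 ± 0.07) and MNT (−0.86 ± 0.10), MAX partners that repress MYC targets, fell, whereas MXD3 of the same family rose by 3.66 ± 0.15. MLXIP rose by 0.46 ± 0.07, so it moved opposite to TXNIP. Genes of glucose uptake and glycolysis mostly rose (12 rose and 3 fell of 20), led by PFKP (0.73 ± 0.06), HK2 (0.68 ± 0.12) and PGAM1 (0.52 ± 0.04), while the glucose transporter SLC2A3 fell by 1.26 ± 0.08. In the thioredoxin system 8 of 14 rose and 2 fell, and in the PI3K, AKT and mTOR list 11 of 28 rose, RHEB most (0.79 ± 0.04), and 10 fell. Among AMPK and stress genes DDIT4, an inhibitor of mTORC1 (−1.14 ± 0.08), and DDIT3, the CHOP factor of the stress response (−1.10 ± 0.10), fell. These lists are thus split in direction, and their counts stand beside the 65.1% of all genes called.

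**Figure D4:**
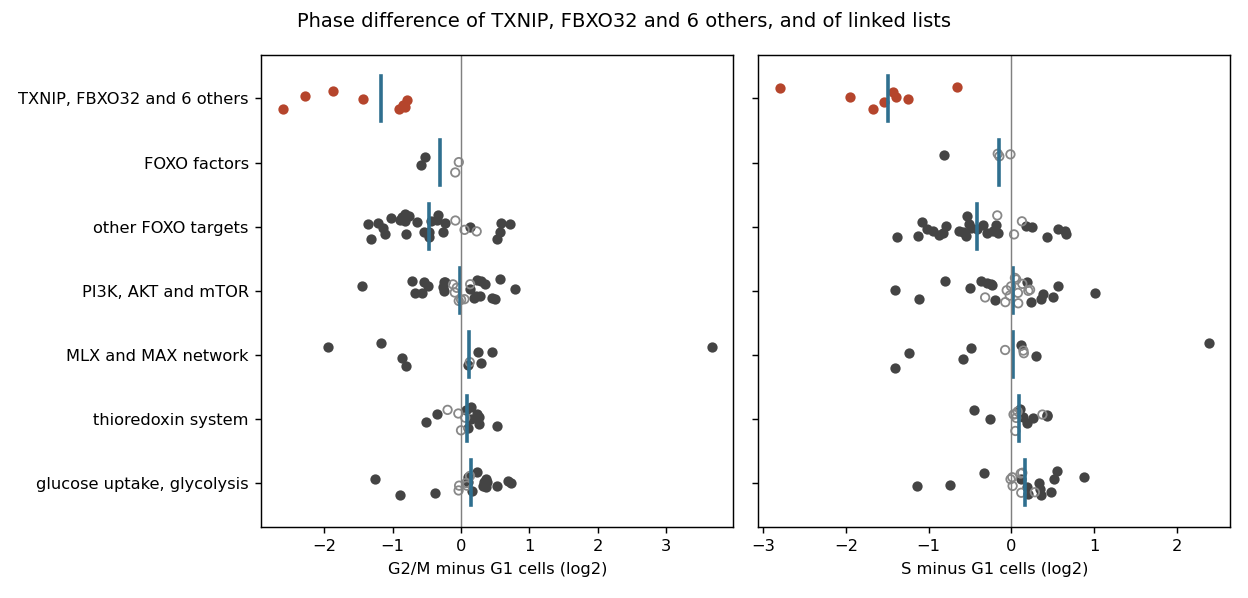
Log2 difference of G2/M minus G1 cells (left) and S minus G1 cells (right) for 8 of the 9 genes (red) and for the genes of 6 lists (dark, filled where the adjusted p is under 0.05); blue bars are medians. The red points all lie below 0, as do 21 of 29 other FOXO targets that fell in G2/M cells, while glycolysis and thioredoxin genes lie mostly above 0.

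Whether the genes went together from cell to cell was asked within each library, with library as a block in the test. In each library, 56 to 580 cells with at least 1 TXNIP UMI after thinning were set against the same number of cells with none; this division was added after the data were seen. Cells with a TXNIP UMI averaged 24.3 CPM of FBXO32, against 13.7 CPM in cells with none, a log2 difference of 0.88 ± 0.12 (SE; edgeR adjusted p = 6.71e-06; higher in 6 of 6 libraries). PIK3IP1 averaged 12.5 CPM in cells with a UMI and 4.99 CPM in cells with none (1.14 ± 0.16, edgeR adjusted p = 1.51e-05), and KLHL24 averaged 19.3 CPM with and 9.31 CPM without one (0.96 ± 0.13, adjusted p = 4.28e-06), both higher in 6 of 6 libraries. SESN3 (0.67 ± 0.09) and CCNG2 (0.54 ± 0.11) rose as well, and BCL6 did not pass (0.43 ± 0.16, adjusted p = 0.128). The background was 2.34% of 12271 genes called higher.

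The division by FBXO32 was made in the same way, with 55 to 536 cells on each side per library. Cells with an FBXO32 UMI averaged 24.9 CPM of KLHL24, against 9.33 CPM in cells with none (log2 1.32 ± 0.12, edgeR adjusted p = 2.14e-11, 6 of 6 libraries). PIK3IP1 averaged 13.5 CPM with and 5.34 CPM without an FBXO32 UMI (1.16 ± 0.15, edgeR adjusted p = 1.66e-07), and SESN3 averaged 42.7 CPM with and 29.7 CPM without one (0.58 ± 0.08, adjusted p = 5.86e-07). TXNIP averaged 21.6 CPM with and 12.4 CPM without an FBXO32 UMI (0.88 ± 0.11, edgeR adjusted p = 1.05e-07). TXNIP was higher in 4 of the 6 libraries. BCL6 (0.67 ± 0.15) and CCNG2 (0.53 ± 0.11) rose too, where 8.9% of 12730 genes were called higher. ARRDC4 and IRS2 passed the filter in neither division.

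**Figure D5:**
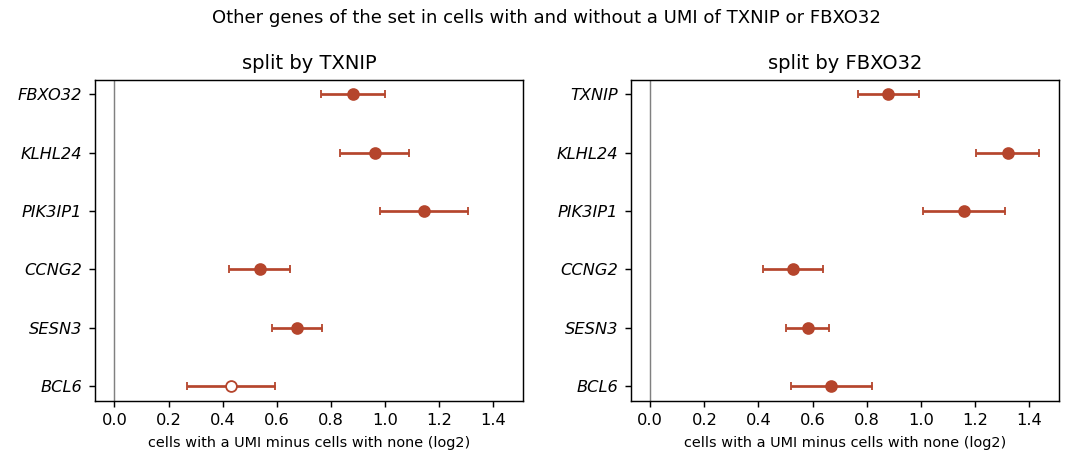
Log2 difference (point) and SE (bar) of 6 genes between cells with and without a UMI of TXNIP (left) or FBXO32 (right), summed per library; filled points have an adjusted p under 0.05. KLHL24 has the largest difference by FBXO32 (1.32) and PIK3IP1 by TXNIP (1.14), and BCL6 by TXNIP is the open point.

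The phase moved with these divisions. G1 cells made up 53.6% to 58.6% of cells with a TXNIP UMI in HaloTag libraries, against 34.8% to 36.7% of those with none, and 60.9% to 69.3% of cells with an FBXO32 UMI, against 27.3% to 36.9%. In Dendra2 libraries G1 cells made up 14.3% to 35.0% of cells with a TXNIP UMI, against 11.5% to 14.3% of those with none, and 36.4% to 46.7% of cells with an FBXO32 UMI, against 12.5% to 28.0%. Cells with a UMI also had a lower median depth in 5 of 6 libraries for TXNIP and in 6 of 6 for FBXO32. In HaloTag libraries they had a higher median mitochondrial share in both divisions, and the part of phase, depth and RNA quality was not tested beyond the values in G1 cells. A further division set the 25% of cells highest in the thinned count against the 25% lowest, with ties ordered at random. All the lowest cells were at 0 UMIs, and so were many of the highest: those with a TXNIP UMI were 29.25% to 52.0% of the highest in HaloTag and 8.08% to 8.85% in Dendra2 libraries, and those with an FBXO32 UMI 38.5% to 58.8% in HaloTag and 8.11% to 11.7% in Dendra2 libraries. Its differences are diluted by this construction, and a lost call below is not read as a weaker link. By TXNIP, FBXO32 rose by 0.29 ± 0.07 (edgeR adjusted p = 0.0122, higher in 4 of 6 libraries). KLHL24 rose by 0.28 ± 0.07 (adjusted p = 0.0434, 5 of 6) and SESN3 by 0.23 ± 0.05 (adjusted p = 0.00164, 6 of 6), among 0.542% of 16055 genes called. By FBXO32, PIK3IP1 rose by 0.59 ± 0.09 (edgeR adjusted p = 0.000254, higher in 5 of 6 libraries) and KLHL24 by 0.58 ± 0.07 (adjusted p = 3.83e-06, 6 of 6). TXNIP rose by 0.30 ± 0.08 (adjusted p = 0.0232, 4 of 6) and SESN3 by 0.26 ± 0.05 (adjusted p = 0.00252, 5 of 6), among 2.65% of 16022 genes called. Within G1 cells alone, none of the genes kept its call by TXNIP (FBXO32 0.22, adjusted p = 0.678; KLHL24 0.30, adjusted p = 0.429; SESN3 0.19, adjusted p = 0.567), while by FBXO32 the calls of KLHL24 and TXNIP held and those of PIK3IP1 (0.22, adjusted p = 0.518) and SESN3 (0.18, adjusted p = 0.364) were lost. Over all cells, the call of FBXO32 by TXNIP was lost without HaloTag 70R (0.17, adjusted p = 0.617), and so was that of SESN3 by TXNIP (0.20, adjusted p = 0.0754) and by FBXO32 (0.24, adjusted p = 0.0530). TXNIP by FBXO32 lost its call without HaloTag 25R (0.33, adjusted p = 0.0721), 52R (0.30, adjusted p = 0.110) or 70R (0.18, adjusted p = 0.487). KLHL24 by TXNIP lost it without HaloTag 25R (0.30, adjusted p = 0.109), 52R (0.24, adjusted p = 0.294) or 70R (0.21, adjusted p = 0.498) or Dendra2 25R (0.28, adjusted p = 0.0588), against 0.28 with all libraries.

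Other genes went with TXNIP and FBXO32. Cells with a TXNIP UMI held more FN1, which encodes the matrix protein fibronectin (log2 0.84 ± 0.11), IGFL2-AS1 (0.79 ± 0.08), the transcription factor MAF (0.75 ± 0.09) and the collagen-binding LUM (0.70 ± 0.11), and less of the replication-dependent histones HIST1H2AH (−1.06 ± 0.12) and HIST1H3D (−0.90 ± 0.14) and of the S-phase factor E2F1 (−0.64 ± 0.12). Cells with an FBXO32 UMI held more IGFL2-AS1 (1.47 ± 0.09), MAF (1.46 ± 0.08), FN1 (1.32 ± 0.11), the stress cytokine GDF15 (1.20 ± 0.10) and DDIT3 (1.11 ± 0.13), and less of the helicase gene PIF1 (−1.05 ± 0.11) and of the mitotic genes CDCA2 (−0.96 ± 0.10), TTK (−0.99 ± 0.10) and PLK1 (−0.89 ± 0.09). The genes of both divisions were named only if called and moving the same way in 6 of 6 libraries, so that agreement is no result. Between slices ranked by TXNIP, the α-arrestin ARRDC3 (0.32 ± 0.08), MXD4 (0.15 ± 0.04) and 1 of 9 osteoblast and mesenchymal markers rose. Between slices ranked by FBXO32, DDIT3 (0.34 ± 0.07), DDIT4 (0.33 ± 0.05), HBP1 (0.24 ± 0.06), MXD4 (0.22 ± 0.05), DEPP1 (0.22 ± 0.06) and GABARAPL1 (0.20 ± 0.05) rose, and 3 of 29 other FOXO targets rose and 1 fell. Of the G2/M list 37 of 53 genes fell with FBXO32 and 3 with TXNIP, and of the S list 11 of 43 fell with FBXO32 and 7 with TXNIP, with 42 of 43 below 0 in each division.

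Correlations across cells were weak and are given as a description over 6 libraries whose cells share depth after thinning. Among 4750 genes, those most like TXNIP by the mean within-library Pearson correlation were MALAT1 (0.081), MAF (0.076), NEAT1 (0.075), FN1 (0.066) and PURPL (0.065), and the least like were TUBA1B (−0.097), H2AFZ (−0.087), TUBB (−0.077), PCLAF (−0.077) and RANBP1 (−0.072). For FBXO32 the most like were MAF (0.155), TIMP1 (0.128), FN1 (0.125), NEAT1 (0.124) and FTH1 (0.115), and the least like TUBA1B (−0.160), H2AFZ (−0.132), TUBB (−0.125), TUBB4B (−0.123) and UBE2S (−0.112). Within the set FBXO32 and KLHL24 were most alike (mean 0.0995, 0.0761 to 0.129 over libraries), then KLHL24 and SESN3 (0.0728). TXNIP and FBXO32 had a mean of 0.0385, with 0.0262 to 0.117 in HaloTag libraries and −0.0237 to 0.0121 in Dendra2 libraries. TXNIP and its paralog ARRDC4 had a mean of 0.0105.

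None of the 9 genes was called between CTD lengths. edgeR called 0.0443% of 18069 genes between 25R and 52R, 0% between 70R and 52R and 0% between 70R and 25R, with 2303, 836 and 2216 genes at an unadjusted p under 0.05 and 489, 67 and 448 called by DESeq2. CCNG2 was lower at both altered lengths within each tag: its log2 difference was −0.71 ± 0.17 at 70R against 52R (unadjusted p = 0.00528, edgeR adjusted p = 0.961, DESeq2 adjusted p = 0.253) and −0.51 ± 0.17 at 25R against 52R (unadjusted p = 0.0227, edgeR adjusted p = 0.322). PIK3IP1 had −0.69 ± 0.28 at 70R against 25R (unadjusted p = 0.0457, edgeR adjusted p = 0.398). TXNIP had 0.89 at 70R against 52R within HaloTag libraries and 0.26 within Dendra2 libraries. With 2 residual degrees of freedom the comparison has little precision, and edgeR called 0 of the 29 other FOXO targets at any CTD length; 10, 5 and 4 had an unadjusted p under 0.05 for 25R against 52R, 70R against 52R and 70R against 25R, where DESeq2 called 6, 2 and 0.

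The kinetic tables deposited by the authors give, per gene and library, a parameter K of a beta-Poisson fit, taken here as the burst frequency, a meaning the tables do not spell out. TXNIP had a K of 0.254 (25R), 0.255 (52R) and 0.334 (70R) in HaloTag libraries, against 0.191, 0.126 and 0.183 in Dendra2 libraries. The authors' intervals for it overlapped at 25R (0.2185 to 0.299 in HaloTag, 0.134 to 0.279 in Dendra2) but not at 52R or 70R. FBXO32 had 0.654 (25R), 0.417 (52R) and 0.299 (70R) in HaloTag libraries, against 0.341, 0.204 and 0.281 in Dendra2 libraries. Its groups overlapped, as HaloTag 70R lay below Dendra2 25R. KLHL24 had 0.910 (25R), 0.699 (52R) and 0.943 (70R) in HaloTag libraries, against 0.322, 0.328 and 0.485 in Dendra2 libraries. The authors' interval for its K in Dendra2 70R ran from 0.2945 to 1.02 and spanned the HaloTag values, so the tags are not resolved. SESN3 had 1.38, 1.07 and 1.33 in HaloTag libraries, against 1.003, 1.14 and 0.806 in Dendra2 libraries, and its groups overlapped. Within HaloTag the order of K for FBXO32, highest at 25R, was not that of its level, highest at 52R. For ARRDC4 the authors' interval for K ran from 0.768 to 1031 in HaloTag 25R, so it and IRS2 are not resolved. Whether K is adjusted for depth is not stated in the tables. Between CTD lengths, limma on log10 K over 36541 genes called 0% of all gene comparisons, and the lowest adjusted p among the 9 genes was 0.907 (BCL6, 25R against 52R). None of the 9 was among the 4355 genes averaging 0.5 UMIs or more in a cell, of whose comparisons 0.023% were called.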

How the data were processed

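Gene-by-barcode matrices of UMI counts were deposited by the authors, which per the file headers come from Cell Ranger 6.1.2, and per the submitters' processing notes from bcl2fastq and GRCh38. The deposited kinetic tables hold other values, estimates of a beta-Poisson fit per gene, per the paths in the file itself; no source used here names the fitting software. The 9 labels are 6 libraries, since both runs of each HaloTag library are merged. Barcodes under 500 genes or over 20% mitochondrial UMIs were dropped, which took out 2.01% to 3.03% of barcodes, and no doublet caller was run.

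UMIs were summed per library and tested with edgeR 4.0.16 (quasi-likelihood, TMM factors, filterByExpr, Benjamini-Hochberg threshold 0.05) on tag plus CTD length, which leaves 2 residual degrees of freedom. Sums per phase or cell division were tested with library as a block. Phases were called with scanpy 1.11.5 from 96 of 97 list symbols on counts thinned to 5000 UMIs, with 50 control genes and 25 bins. log10 K was tested with limma 3.58.1, and DESeq2 1.42.0 was an alternative. Other alternatives were library totals, no filter, all barcodes, no thinning, wider slices, G1 cells only, no boundary cells and each library left out. CPM intervals are exact Poisson at 95% and cover counting error only. Nothing in the labels says the libraries are separate cultures, so p-values measure the spread between libraries, which may be technical.

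The members and lists were chosen with earlier results of these data known. Named genes were all members, the FOXO and MLX factors, and up to 10 called genes per list and direction with at least 10 CPM. Also named were up to 10 per cell division and direction with 20 CPM or more that moved one way in 6 libraries, and the 5 most and least alike. The text gives a subset. Between the tags HBP1, GABARAPL1, KLF2, TXN and TXNRD1 are described although edgeR did not call them there. The division by a UMI, the 10% mitochondrial limit and the paired-box motif were chosen after seeing the data.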

Additional observations from a re-analysis of the deposited data

Results flagged for a closer look

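The fall of SESN3 in G2/M against G1 cells differed between the tags: the log2 difference was 0.51 ± 0.11 higher in HaloTag than in Dendra2 libraries (0.5067 before rounding; edgeR interaction, adjusted p = 0.0199). Since the genes were chosen partly on the tag contrast, nothing further is read from this call.

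Some CTD differences pointed in opposite directions under the tags beyond counting error. They were picked for this from all the CTD comparisons of the 9 genes. The share of all genes that meet the same rule was not computed, so nothing is read from their number. These contrasts between the tags were not tested, with 1 library per genotype, and the intervals cover counting error only. FBXO32 at 25R against 52R had a log2 difference of −0.6746 in HaloTag libraries (95% interval −0.78 to −0.57) and 0.5243 in Dendra2 libraries (0.25 to 0.80). FBXO32 at 70R against 52R had −0.4434 in HaloTag (−0.55 to −0.34) and 0.6964 in Dendra2 libraries (0.43 to 0.97). SESN3 at 70R against 25R had 0.2053 in HaloTag (0.12 to 0.29) and −0.1963 in Dendra2 libraries (−0.33 to −0.06). BCL6 at 70R against 25R had 0.2883 in HaloTag (0.11 to 0.47) and −0.2364 in Dendra2 libraries (−0.46 to −0.02).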

How the results depend on the processing

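No result reversed under any alternative run. Of the members, all 108 tag values, which carry no test, stayed above 0, all 176 phase values kept their direction and side of the threshold, and 18 of 84 values of the cell divisions lost their call; DESeq2 gave no adjusted p for 7 more. Counts of called genes moved more, and the cause was not tested. Between the tags (47) DESeq2 called 1123 and no filter 327; for 25R against 52R (8) DESeq2 size factors gave 0, DESeq2 489 and no filter 104; for 70R against 52R (0) DESeq2 gave 67 and no filter 2; for 70R against 25R (0) they gave 448 and 50. By TXNIP (87) DESeq2 called 5, no thinning 347, wider slices 50, G1 cells 6 and cells with a UMI against none 644; by FBXO32 (424) DESeq2 called 79, no thinning 1077, G1 cells 95 and cells with a UMI against none 2436. For burst frequency (3), all genes and centring each gave 0. Leaving out 1 library gave 6 to 105 calls between the tags (6 without HaloTag 52R, 105 without HaloTag 25R), 0 to 538 for 25R against 52R and 0 to 523 for 70R against 25R (both highest without Dendra2 25R), 0 to 2 for 70R against 52R, 9862 to 10403 for G2/M, 8289 to 8792 for S, 27 to 96 by TXNIP, 119 to 520 by FBXO32 and 0 to 90 for burst frequency. ARRDC4 rests on 30 to 137 UMIs per library and IRS2 on 14 to 35. HaloTag and Dendra2 libraries of the same CTD length are matched in the tag fit, and phases and divisions within a library. By replicate number, no paired analysis was possible because those numbers mark sequencing runs of 1 library, per the series' design text.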
